A study of Xenopus laevis with 30 samples.

Results

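Translation initiation factors (eIFs) and elongation factors (eEFs) were followed through RNA sequencing of animal caps of the frog Xenopus laevis. Members were chosen by name: every row of the count tables called eif or eef with a factor number was taken, without eif4a3, which belongs to the exon junction complex, and without the eif2ak kinases. The rule gave 77 rows of 49109, and the endings .L and .S in their names mark the homeologs of this allotetraploid frog. The rows of eEF2, named eef2.1 and eef2.2, and the rows eif4e-like.1.S, eif5b-like.S and eefsec.S fell outside the name rule.

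Animal caps are the ectoderm of the blastula, which can be cut off and grown in a simple medium. All embryos had received noggin and wnt8 mRNA at the 2-cell stage, a treatment that turns this ectoderm towards neural crest, and the caps were cut at stage 8 to 9 and cultured for 8 h. Caps with these mRNAs alone form the control group NW. In the group NWS the embryos were co-injected with an antisense morpholino to Sf3b4, which is part of the spliceosome. Total RNA of single caps was sequenced after depletion of ribosomal RNA (depleted libraries) and without depletion (undepleted libraries), which gave 4 groups of 3 libraries each. In whole caps, fewer cells of a type and less RNA per cell cannot be told apart.

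Initiation begins when eIF2 carries the initiator tRNA to the small ribosomal subunit, on which eIF1, eIF1A, eIF3 and eIF5 hold the complex ready for scanning. The cap of the mRNA is bound by eIF4E, which eIF4G links to the helicase eIF4A, and eIF5B then joins the large subunit. During elongation eEF1A brings each aminoacyl-tRNA, the eEF1B complex recharges eEF1A with GTP, and eEF2 moves the ribosome along the mRNA.

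Depth differed widely between libraries. Total counts ran from 351902 to 3570364 in depleted and from 3499960 to 4339788 in undepleted libraries, and outside the rows that hold over 0.5% of any library's counts they ran from 115281 to 2809455 and from 87172 to 2042925. Factor rows held 1.42% to 1.86% of these remaining counts in depleted and 1.30% to 1.72% in undepleted libraries. By these remaining counts library 3 of NW was the deepest and library 2 of NW among the shallowest, with 47208 against 2005 factor counts in the depleted tables. By total counts library 2 of NW was the deepest of the undepleted libraries. Of the depleted NWS libraries, library 1 was the shallowest by both measures. It held 127568 remaining counts and 2268 factor counts, against 207844 and 3449 in library 2. Between 56 and 74 of the 77 factor rows had counts in a depleted library, and between 51 and 74 in an undepleted library. Rows of the neural crest markers were all detected (19 of 19), with summed levels in depleted libraries of 470 to 1919 CPM (counts scaled to the effective library size) for NW and 216 to 1301 CPM for NWS. Of the 18 crest rows tested, 16 had lower values in NWS in depleted (median log2 fold change -1.11) and 17 in undepleted libraries (median -1.30), with 0 called by edgeR and 1 called in undepleted libraries with the library number as a block. The part of this shift in the factor values was not tested. Among other cell types, neural plate rows summed to 82.4 to 250.02 CPM in NW and 133 to 356 CPM in NWS depleted libraries and exceeded the crest sum in NWS library 2. Epidermis rows reached at most 98.1 CPM, mesoderm rows 80.4 CPM and endoderm rows 2.53 CPM in depleted libraries. The mesoderm value came from NW library 1, against 0 to 5.53 CPM in the other depleted libraries. In undepleted libraries the mesoderm sum was 10.6 CPM in NW library 1 and 0 to 0.49 CPM in the others. The targeted gene gave 3.68 to 30.1 CPM for sf3b4.L and 3.68 to 21.0 CPM for sf3b4.S in depleted libraries without a called difference. A morpholino need not lower the RNA it binds, so these counts do not check the labels.

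The level of each factor was read from the deposited FPKM values, which are counts per length of transcript. In the depleted libraries the order of median FPKM was led by the row eif3a.L, named after the largest subunit of eIF3. Which transcripts this row collected was not tested, as described with eIF3 below. It was followed by eef1b2.L, an exchange subunit of eEF1B, and by eef1a1.L, the somatic eEF1A. Next came eef1a1o.S, the eEF1A described from Xenopus oocytes, and the copies eif4a1.S and eif4a1.L of the eIF4A helicase. In undepleted libraries the same 6 rows were at the top, with eef1a1.L before eef1b2.L. FPKM tables were scaled separately for each preparation, so only the order, and not the level, can be set side by side.

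The row eif3a.L had 305, 300 and 123 FPKM in NW and 191, 174 and 106 FPKM in NWS depleted libraries. The row eef1b2.L had 147, 163 and 98.8 FPKM in NW and 238, 53.8 and 138 FPKM in NWS. Its highest library lay above 4 of the 6 eif3a.L values, so these neighbours in the order did not differ beyond the spread of the libraries. The copies eif4a1.S (31.1 to 96.9 FPKM) and eif4a1.L (21.8 to 66.7 FPKM) overlapped as well, with eef1a1o.S (48.9 to 85.4 FPKM) in the same range. Farther down stood eif4g2.L, a relative of eIF4G without the eIF4E-binding site in mammals, at 18.9 to 70.5 FPKM, and eif4b.L, a helper of eIF4A, at 16.8 to 51.8 FPKM. A median above 10 FPKM was found for 34 of the 77 rows in depleted libraries.

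**Figure D1:**
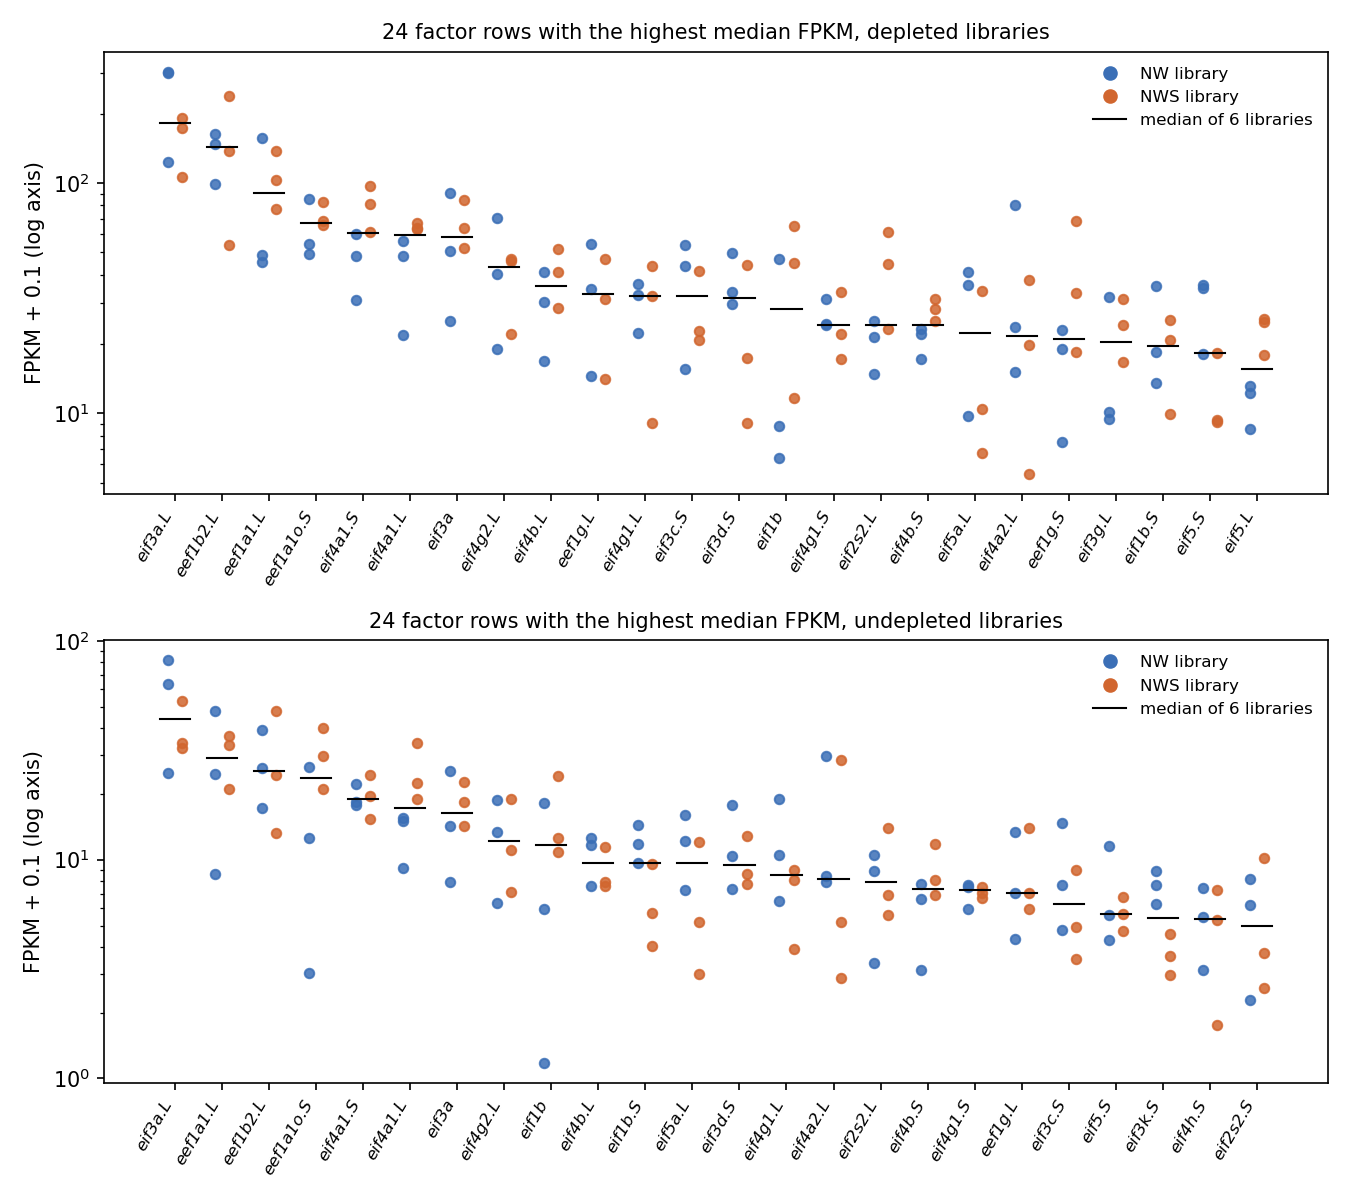
Deposited FPKM (log axis, with 0.1 added) of the 24 factor rows with the highest median in each preparation, depleted above and undepleted below. Each point is a library, blue for NW and orange for NWS, and the bar is the median of the 6 libraries. The row eif3a.L leads both panels at medians of 182 and 43.7 FPKM, and the points of neighbouring rows overlap.

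The eEF1A rows showed a somatic and an oocyte form side by side. The somatic eef1a1.L had 45.5, 48.4 and 157 FPKM in NW and 77.3, 103 and 138 FPKM in NWS depleted libraries. The oocyte form eef1a1o.S had 54.4, 48.9 and 85.4 FPKM in NW and 68.1, 82.8 and 65.7 FPKM in NWS. NW library 3 was the highest for both rows, and the NW and NWS ranges overlapped for both. In undepleted libraries eef1a1.L had 24.6, 8.50 and 47.6 FPKM in NW and 21.0, 33.5 and 36.8 FPKM in NWS. There eef1a1o.S had 12.48, 2.93 and 26.3 FPKM in NW and 21.0, 39.9 and 29.6 FPKM in NWS, lowest in NW library 2.

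The log2 ratio of eef1a1o.S to eef1a1.L was -0.20 ± 0.60 in NW and -0.52 ± 0.48 in NWS depleted libraries (SD, n = 3 each), with the oocyte form higher in 2 of 6 libraries. In undepleted libraries it was -1.11 ± 0.35 in NW and -0.02 ± 0.28 in NWS (SD, n = 3 each), and every NWS library lay above every NW library. The lowest ratio, that of NW library 2, rested on 5 counts of eef1a1o.S and 17 of eef1a1.L. For undepleted NWS the source names number only 2 biological replicates, so n = 3 is less certain there. A two-sided exact permutation test gave p = 0.5 for the depleted and p = 0.1 for the undepleted ratio, and 0.1 is the smallest p that 3 against 3 libraries allow. Within pairs of equal library number the ratio was lower in NWS in 3 of 3 depleted and higher in 3 of 3 undepleted pairs (two-sided exact sign-flip permutation p = 0.25 each, the smallest that 3 pairs allow). This ratio and its test were chosen after the values had been seen, and the depleted libraries of the same titles gave a difference of the opposite sign. The other oocyte row, eef1a1o.L, was near 0 with at most 4.87 FPKM, and eef1a2.L and eef1a2.S, the form of muscle and neurons in mammals, had no counts in any of the 12 libraries. A count of 0 allows up to 0.268 to 7.58 CPM in a depleted and up to 0.11 to 2.76 CPM in an undepleted library (3 counts each). Markers of germ plasm and oocytes (12 rows, with dazl, ddx4 and zar1 among the genes) summed to 1.498 to 22.1 CPM in depleted and to 0 to 8.14 CPM in undepleted libraries, with 3 of the rows at 0 in all libraries of a preparation.

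**Figure D2:**
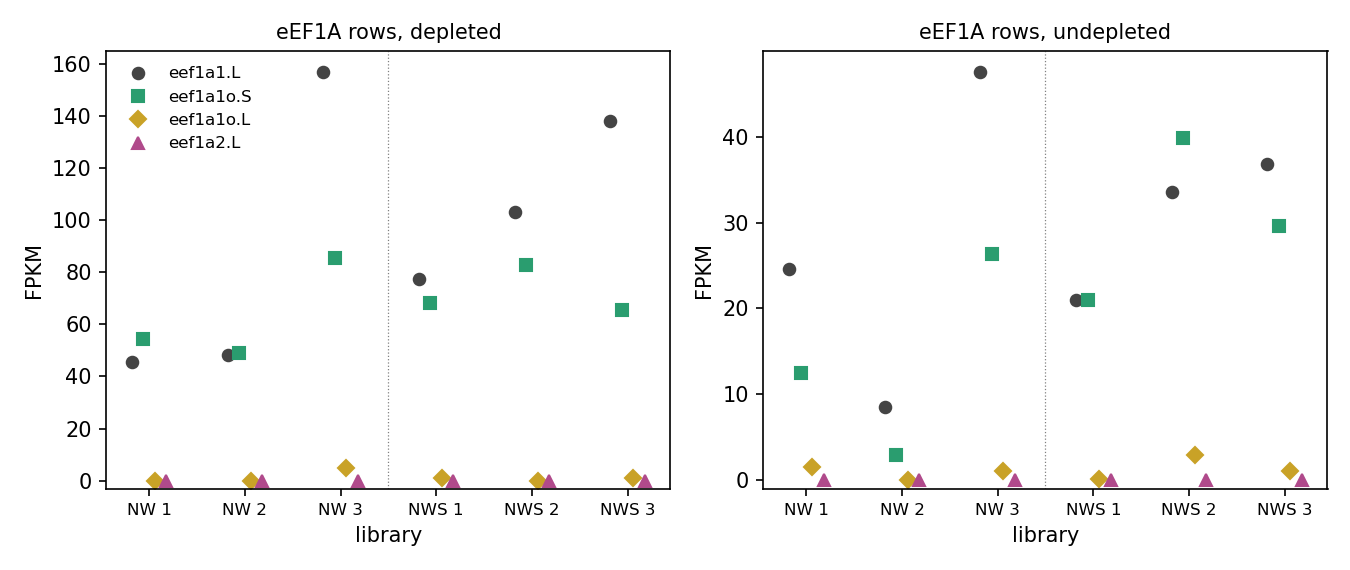
FPKM of the eEF1A rows in each library, depleted on the left and undepleted on the right, with NW left and NWS right of the dotted line. The log2 ratio of oocyte eef1a1o.S to somatic eef1a1.L ran from -1.07 to 0.26 in depleted and from -1.51 to 0.25 in undepleted libraries. The row eef1a1o.L stays at or below 4.87 FPKM and eef1a2.L, shown for both eef1a2 copies, at 0.

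eIF3 is a complex of 13 subunits that binds the small ribosomal subunit, and 22 rows covered all 13. Rows of a subunit were added up for this comparison. The eif3a rows together had 356, 391 and 148 FPKM in NW and 243, 258 and 170 FPKM in NWS depleted libraries. The medians of the other 12 subunits ran from 7.18 FPKM for eif3i to 46.2 FPKM for eif3c, and no library gave any of them more than 75.4 FPKM. In undepleted libraries eif3a had 32.7 to 95.6 FPKM, the other medians ran from 2.36 FPKM for eif3m to 10.6 FPKM for eif3c, and the highest single value of another subunit was 21.5 FPKM. The range of the rows named eif3a thus lay above that of every other subunit in both preparations.

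After eif3c came eif3d, the subunit that can itself bind caps in human cells, at 9.00 to 49.7 FPKM, and eif3g, an RNA-binding subunit, at 18.2 to 53.3 FPKM in depleted libraries. The least abundant subunits in the order were eif3i, eif3f and eif3m, at medians of 7.18, 7.24 and 7.87 FPKM, and their ranges overlapped. The row eif3a.L exceeded eif3c.S in 6 of 6 depleted libraries by a log2 ratio of 2.63 ± 0.39 and in 6 of 6 undepleted libraries by 2.75 ± 0.49 (SD, n = 6). The reference gene table lists nucleolin among the older names of eif3a.L, and the count tables hold a separate nucleolin row, ncl.S. In depleted libraries ncl.S had 251 to 470 FPKM (687 to 1326 CPM) and eif3a.L 106 to 305 FPKM (642 to 1908 CPM). Which transcripts the eif3a rows collected was not tested. The eif3a rows made up 23.5% to 48.0% of all factor counts in depleted and 18.1% to 42.1% in undepleted libraries. The share was lowest in NW library 3 of both preparations, the deepest outside the rows over 0.5% of counts.

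**Figure D3:**
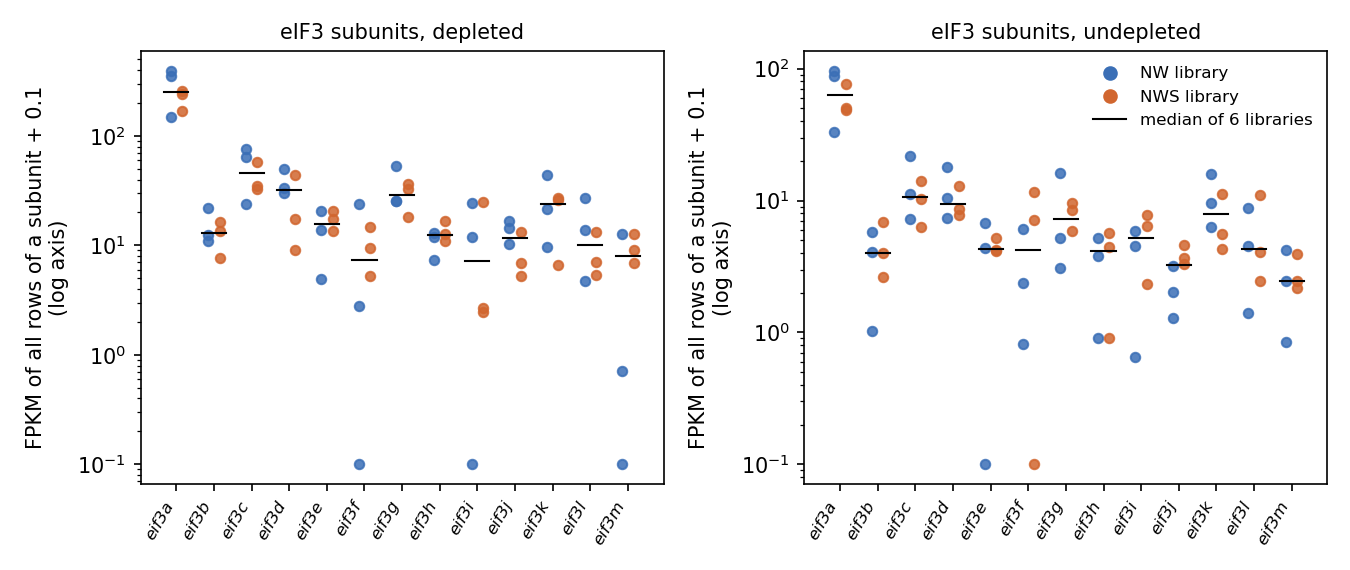
FPKM of the 13 eIF3 subunits (log axis, with 0.1 added), with the rows of a subunit added up, in depleted (left) and undepleted (right) libraries. Points are libraries and bars medians of 6 libraries. The eif3a points, 148 to 391 FPKM in depleted libraries, lie above all points of the other subunits. Which transcripts these rows collected was not tested.

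Among the cap-binding proteins, eif4e.L and eif4e1b.S had similar low levels. The row eif4e1b.S, a form known from Xenopus oocytes, had 7.40, 0.68 and 9.52 FPKM in NW and 7.10, 11.7 and 9.23 FPKM in NWS depleted libraries. The row eif4e.L had 8.25, 0 and 8.55 FPKM in NW and 5.58, 0 and 27.3 FPKM in NWS. It was listed at 0 in both depleted libraries numbered 2, where depth was low. In undepleted libraries the log2 ratio of eif4e1b.S to eif4e.L was -0.65 ± 0.30 in NW and -0.11 ± 0.35 in NWS (SD, n = 3 each; two-sided exact permutation p = 0.2). The remaining eIF4E rows, eif4e2.L, eif4e3.L and eif4e3.S, had medians of 0.63 to 3.81 FPKM in depleted libraries. The scaffolds eif4g1.L and eif4g1.S had medians of 32.3 and 24.2 FPKM, above those of the eIF4E rows. Repressors of eIF4E were low, with a median of 7.73 FPKM for the 4E-BP row eif4ebp2.S and of 6.30 and 5.10 FPKM for eif4enif1.L and eif4enif1.S, which encode the eIF4E transporter 4E-T.

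The helicase paralogue eif4a2.L spread widely between libraries. It had 80.6, 14.97 and 23.7 FPKM in NW and 37.9, 5.35 and 19.7 FPKM in NWS depleted libraries. In undepleted libraries it had 29.6, 8.35 and 7.78 FPKM in NW and 28.4, 5.11 and 2.77 FPKM in NWS. The libraries numbered 1 were the highest of their group each time, and the groups overlapped. Within pairs of equal library number NWS was lower in 3 of 3 pairs of each preparation, as were 12.3% and 12.8% of all rows tested. The log2 fold changes were -1.003 ± 0.785 and -0.36 ± 0.75 (SE, edgeR adjusted p = 0.999 and 1.00), and with the library number as a block -0.95 ± 0.69 and -0.78 ± 0.60 (SE, adjusted p = 1.00 for both).

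The eIF2 subunits had medians from 3.57 FPKM for eif2s1.L, the alpha subunit on which the eIF2 kinases act, to 24.1 FPKM for eif2s2.L, the beta subunit. The 5 rows of eIF2B, which recharges eIF2 with GTP, had medians from 0 to 3.97 FPKM and none passed the count filter in either preparation. Of the factors at the start codon, eif1b had 6.28, 8.70 and 46.7 FPKM in NW and 11.6, 45.1 and 65.3 FPKM in NWS depleted libraries, and eif1b.S had a median of 19.6 FPKM. The row eif1.L stood lower than eif1b.S in 6 of 6 libraries of each preparation, at a median of 3.91 FPKM, and was listed at 0 in both depleted libraries numbered 2. eIF5A, the hypusine-bearing factor that helps stalled ribosomes, was found mainly as eif5a.L at a median of 22.2 FPKM. The late factors eif5b.L and eif6.L had medians of 5.31 and 10.8 FPKM. Outside the name rule, the eEF2 rows eef2.1.L and eef2.1.S had 19.9 to 109 and 21.9 to 68.9 FPKM in depleted libraries, overlapping the ranges of eef1a1.L and eef1a1o.S and reaching below both, and eef2.2.L reached at most 3.05 FPKM.

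The study set caps with the morpholino against caps without it, and no factor row passed the test in this comparison. In the depleted libraries 59 rows passed the count filter, and 0 were called by edgeR's quasi-likelihood test at a Benjamini-Hochberg adjusted p under 0.05. DESeq2 called 0 as well, and 0 of the 59 rows had an unadjusted p under 0.05. The background was also low: 0% of all 6585 rows tested were called, 3.72% had an unadjusted p under 0.05, and with the library number as a block 0.197% were called, none of them factor rows. Among the 59 factor rows 32 had lower and 27 had higher values in NWS. Their median log2 fold change was -0.14, against -0.03 over all rows tested. Single values ran from -2.04 to 1.72, and their standard errors from 0.60 to 1.41.

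In the undepleted libraries 58 rows were tested and again 0 were called, by edgeR and by DESeq2, with 1 row at an unadjusted p under 0.05. With the library number as a block 3 rows (eif4h.L, eef1a1o.S and eef1d.L) had an unadjusted p under 0.05, and 0 were called. Of all 6284 rows 0.0159% were called, 4.03% had an unadjusted p under 0.05, and 0.223% were called with the library number as a block. Here 32 factor rows had lower and 26 had higher values. Their median log2 fold change was -0.06, against -0.04 over all rows. Groups did not overlap for 9 factor rows in depleted libraries (4 lower, 5 higher) and for 4 in undepleted libraries (3 lower, 1 higher), where 8.64% and 8% of all rows tested did not overlap. Of the 54 rows tested in both preparations 34 had the same sign, and libraries of the same title in both tables are not independent. The median standard error of a factor row was 0.84 in depleted and 0.82 in undepleted libraries on the log2 scale. Even the lowest value, -2.86 for eif4h.L in undepleted libraries, was not called.

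**Figure D4:**
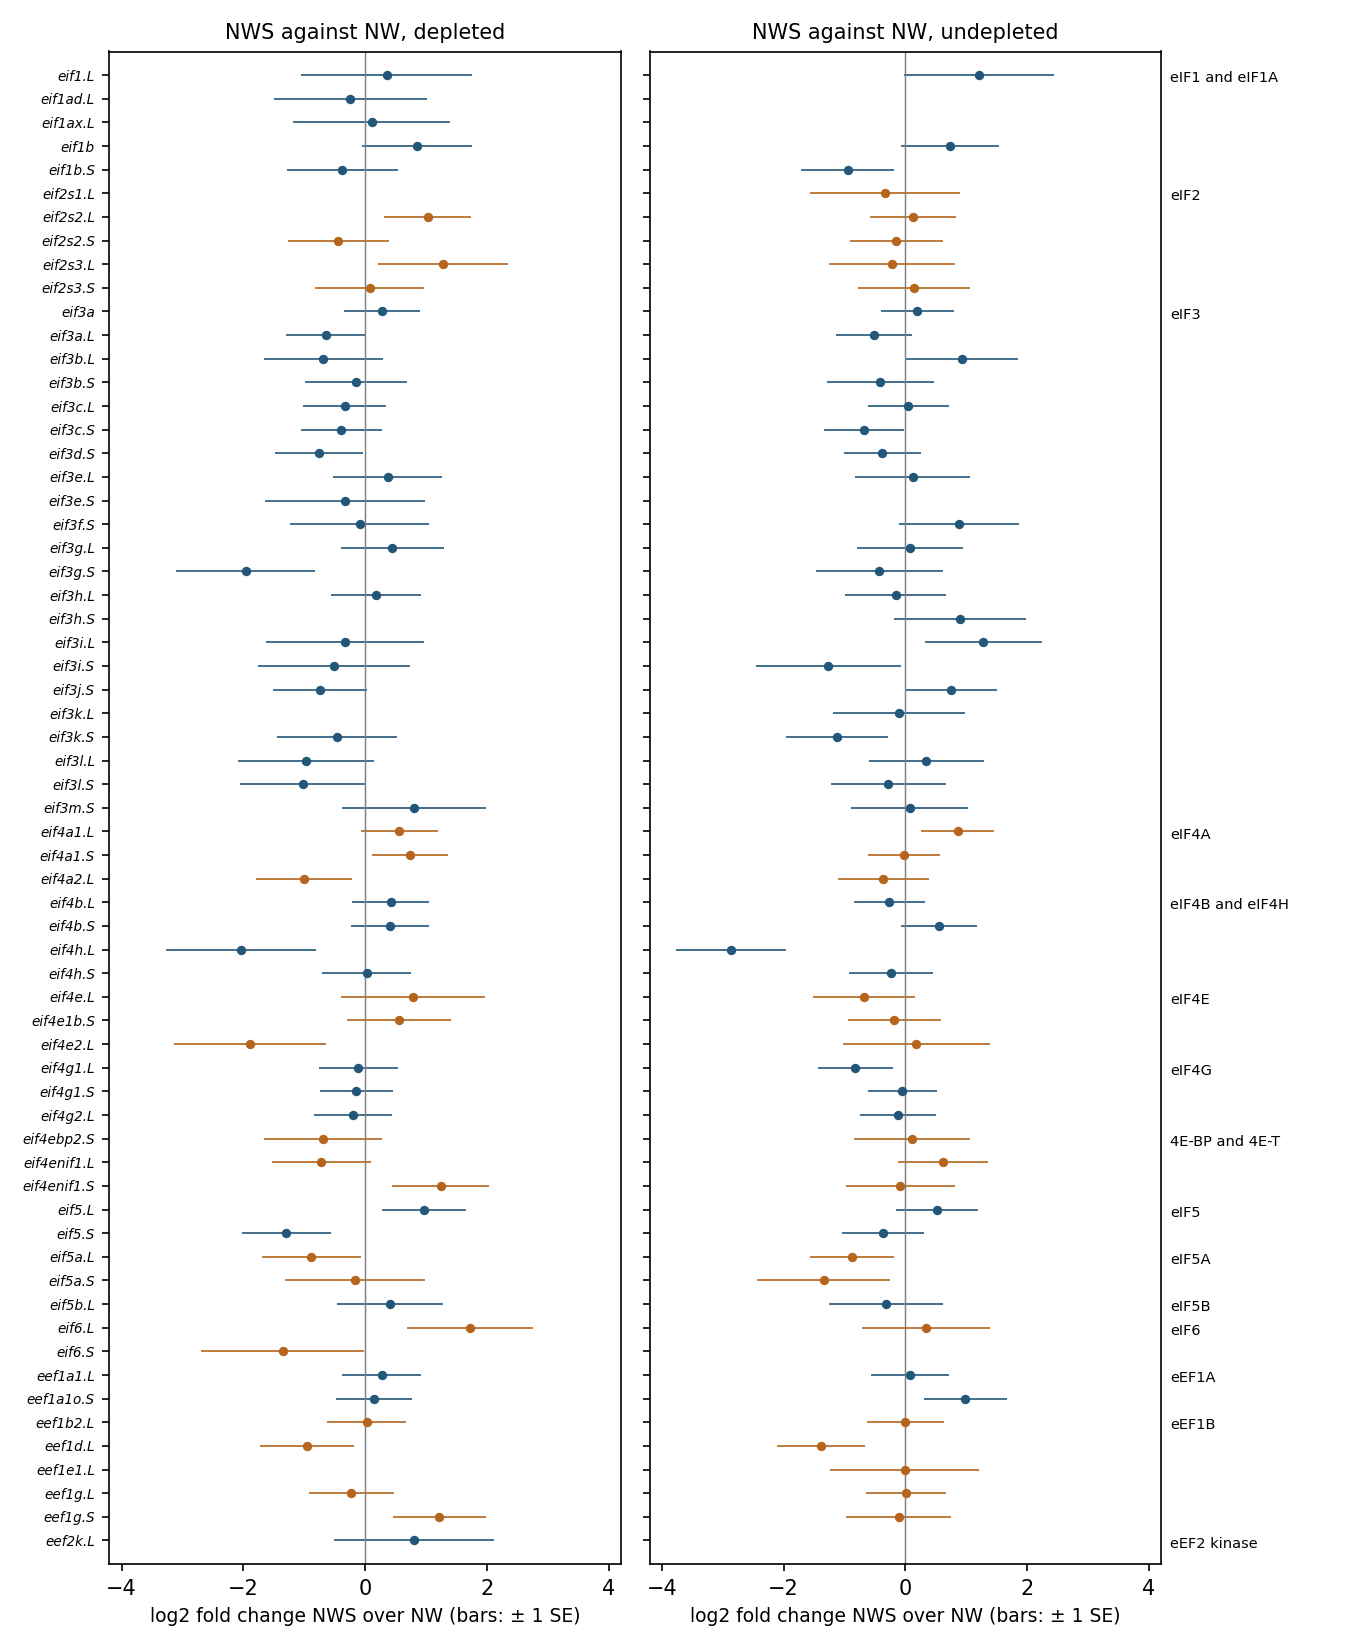
Log2 fold change of NWS over NW (edgeR) for each factor row that passed the count filter, ordered by role, in depleted (left) and undepleted (right) libraries. Bars are 1 standard error to each side, computed back from the test statistic. Most bars reach 0, and eif4h.L is the lowest row in both panels at -2.04 and -2.86.

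The row farthest from 0 was eif4h.L, a copy of eIF4H, which stimulates the helicase eIF4A. It had 27, 10 and 143 counts in NW and 1, 0 and 10 counts in NWS depleted libraries, which is 13.5, 25.3 and 12.8 CPM against 1.96, 0 and 9.21 CPM. In undepleted libraries it had 45, 36 and 153 counts in NW and 10, 2 and 9 counts in NWS, or 8.22, 33.1 and 5.64 CPM against 2.01, 1.83 and 2.22 CPM. Every NWS library was below every NW library in both preparations, at counts that were low in most of them. Of all rows tested, 8.64% in depleted and 8% in undepleted libraries had groups without overlap in either direction. The share of rows separated in both preparations was not counted, and libraries of the same title are not independent. The log2 fold change of eif4h.L was -2.04 ± 1.24 (SE, adjusted p = 0.999) in depleted and -2.86 ± 0.91 (SE, adjusted p = 0.82) in undepleted libraries by edgeR. In undepleted libraries this was the single factor row under an unadjusted 0.05 in the fit without a block. Without NW library 2 the undepleted value fell in size to -1.71, and without both libraries numbered 2 the values were -1.13 and -1.63.

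The other copy, eif4h.S, was more abundant and gave log2 fold changes of 0.03 ± 0.73 and -0.23 ± 0.69 (SE). With both copies added up, eIF4H gave -0.29 ± 0.67 in depleted and -0.93 ± 0.62 in undepleted libraries (SE, edgeR adjusted p = 1.00 and 0.998). The ratio of the L to the S copy differed between NWS and NW by -2.53 ± 1.17 and -2.21 ± 0.92 on the log2 scale (SE, edgeR adjusted p = 1). Reads of near-identical homeologs may be divided between rows by the upstream counting, so values of single copies are uncertain.

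Some other rows had values of the same sign in both preparations without passing, and not all of these lay away from 0. The guanine nucleotide exchange subunit eef1d.L had CPM values of 73.4, 96.0 and 26.8 in the depleted libraries of NW and of 53.0, 12.9 and 34.1 in those of NWS. Its log2 fold changes were -0.96 ± 0.77 and -1.38 ± 0.72 (SE), and the groups overlapped in both preparations. Without both libraries numbered 2 they were -0.22 and -0.71. Both copies of eIF5A were on the lower side, with -0.88 ± 0.81 and -0.88 ± 0.69 for eif5a.L and -0.17 ± 1.16 and -1.34 ± 1.09 for eif5a.S (SE, depleted and undepleted). All 3 eIF4G rows had negative values in both preparations, but all except 1 were near 0. The exception was -0.82 ± 0.61 (SE) for eif4g1.L in undepleted libraries. Depleted values were -0.11 for eif4g1.L, -0.14 for eif4g1.S and -0.20 for eif4g2.L. The undepleted values of eif4g1.S and eif4g2.L were -0.05 and -0.12. On the other side, eif4a1.L had 21.8 to 55.9 FPKM in NW and 63.3 to 66.7 FPKM in NWS depleted libraries, and 9.08 to 15.3 against 18.8 to 33.9 FPKM in undepleted libraries. Every NWS library was above every NW library in both preparations. Of all rows tested, 8.64% in depleted and 8% in undepleted libraries had groups without overlap in either direction. The share separated in both preparations was not counted, and libraries of the same title are not independent. The log2 fold changes of eif4a1.L were 0.56 ± 0.64 and 0.86 ± 0.60 (SE, edgeR adjusted p = 0.999 and 1.00). Without both libraries numbered 2 these were 0.23 and 0.44.

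The rows with the highest mean fold change over both preparations were eif6.L, eif1b, eif1.L and eif5.L. The row eif6.L, whose product keeps the ribosomal subunits apart, had 7.61, 0 and 9.15 FPKM in NW and 38.6, 12.42 and 14.5 FPKM in NWS depleted libraries. Every NWS library was higher there, at a log2 fold change of 1.72 ± 1.03 (SE). The counts were 20, 0 and 144 in NW and 25, 12 and 20 in NWS. Of all rows tested in depleted libraries, 8.64% had groups without overlap in either direction. In undepleted libraries the eif6.L groups overlapped at 0.34 ± 1.06 (SE), with 0 counts in both libraries numbered 2. For eif1b, whose depleted values are given above, NWS was higher in 3 of 3 pairs of equal number in each preparation. So were 13.1% of all rows tested in depleted and 11.7% in undepleted libraries. The log2 fold changes of eif1b were 0.85 ± 0.91 and 0.73 ± 0.81 (SE), and the groups overlapped. Without both libraries numbered 2 these were 0.43 and 0.53, and without NW library 3 they were 2.52 and 2.09. The row eif1.L gave 0.35 ± 1.41 and 1.21 ± 1.23 (SE) at low counts, and eif5.L gave 0.97 ± 0.69 and 0.52 ± 0.68 (SE). None of these passed (edgeR adjusted p = 0.999 in depleted and 1.00 in undepleted libraries).

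For eIF5, which triggers GTP hydrolysis on eIF2, the copies went in opposite directions in depleted libraries. The row eif5.L had 13.1, 8.48 and 12.1 FPKM in NW and 17.9, 25.6 and 24.9 FPKM in NWS. The row eif5.S had 36.2, 34.8 and 18.0 FPKM in NW and 9.28, 9.05 and 18.2 FPKM in NWS. The L copy was below the S copy in all 3 depleted NW libraries and above it in all 3 depleted NWS libraries. Such a separation was not counted over all pairs. The change of the ratio was 2.26 ± 0.85 on the log2 scale (SE, unadjusted p = 0.00772, edgeR adjusted p = 1), and in undepleted libraries it was 0.71 ± 0.80. The undepleted log2 ratios of L to S were -1.53, -0.55 and -0.35 in NW and 0.49, 0.04 and -0.92 in NWS. The groups overlapped there. With the copies added up, eIF5 differed by -0.07 ± 0.60 in depleted and 0.09 ± 0.58 in undepleted libraries. The change of the ratio was called for 0 of 20 factor pairs in each preparation. It was called for 0% of all pairs tested in depleted and 0% in undepleted libraries. An unadjusted p under 0.05 was found for 3 factor pairs in depleted and 1 in undepleted libraries. Over all pairs it was found for 64 of 2199 and 87 of 2428. The ratio was tested by edgeR alone and after the values had been seen.

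No row of an eIF3 subunit passed the test. In depleted libraries 15 of the 20 rows tested had lower values in NWS (median log2 fold change -0.36), and in undepleted libraries 10 of 21 did (median 0.05). The lowest in depleted libraries was eif3g.S at -1.96 ± 1.14 (SE), with 21.3, 15.4 and 15.9 FPKM in NW and 12.3, 1.18 and 1.65 FPKM in NWS. In undepleted libraries it stood at -0.42 ± 1.05 (SE), and the groups overlapped. The row eif3i.S gave -0.51 ± 1.25 and -1.27 ± 1.19 (SE). The leading row eif3a.L gave -0.64 ± 0.65 and -0.52 ± 0.62, and the second eif3a row 0.27 ± 0.63 and 0.20 ± 0.60 (SE).

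The tested eEF1A rows had positive values that did not pass. The fold change on the log2 scale was 0.27 ± 0.65 and 0.08 ± 0.64 for eef1a1.L and 0.15 ± 0.63 and 0.99 ± 0.68 for eef1a1o.S (SE, depleted and undepleted). Without both libraries numbered 2 the sign turned for eef1a1.L in both preparations and for eef1a1o.S in depleted libraries. The exchange subunit eef1b2.L lay at 0.02 ± 0.65 and 0.00 ± 0.63 (SE). The eEF2 row eef2.1.S gave -0.93 ± 0.61 and -0.44 ± 0.60, and eef2.1.L -0.56 ± 0.65 and -0.94 ± 0.68 (SE).

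Whether the change with the morpholino differed between preparations was tested on all 12 libraries. The interaction was called for 0 of 71 factor rows by edgeR and for 0% of 13224 rows. An unadjusted p under 0.05 was found for 232 of all rows and for 2 factor rows. These were eef1a1o.S at -1.14 ± 0.53 and eif3j.S at -1.66 ± 0.82 (SE, depleted minus undepleted, adjusted p = 1).

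Factor rows were also compared between the preparations. Between depleted and undepleted libraries 0 of 71 factor rows were called in either direction by edgeR. Of all 13224 rows 0% were called higher and 0.0756% lower in depleted libraries. An unadjusted p under 0.05 was found for 4 factor rows and for 363 of all rows. The median log2 difference of factor rows was 0.05, and 38 of 71 were higher in depleted libraries. The eEF1B subunits eef1g.S (log2 difference 1.12 ± 0.40) and eef1b2.L (0.57 ± 0.26) and the eIF3 subunit eif3c.S (0.47 ± 0.27) were higher in depleted libraries for 6 of 6 library pairs of the same title (SE, adjusted p = 1.00 for each), as were 1.07% of all rows. The row eif3k.L was lower in 5 pairs and had no counts in the other, at -0.87 ± 0.74 (SE), and 1.37% of all rows were lower in all 6 pairs. The row eif4h.L was lower there by -1.13 ± 0.55 (SE), higher in only 1 of 6 pairs. DESeq2 called 0 factor rows in this comparison and in the interaction.

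The L and S rows of some factors differed in level. The division of near-identical reads between homeologs by the upstream counting, described above, may also affect these ratios and was not tested. Of 24 factor pairs with an L and an S row, 20 had enough counts in each preparation, and the L to S ratio per length was called for 6 of 20 in depleted and 6 of 20 in undepleted libraries by edgeR, where 23.5% and 25.5% of all pairs tested were called. In depleted libraries 3 factor pairs were higher for L and 3 for S, against 319 and 198 of all 2199 pairs tested. With the same sign in both preparations 5 factor pairs passed. The share of all pairs that did so was not counted, and libraries of the same title are not independent. Without pairs under 50 counts 3 were called in depleted libraries, and without NW library 3 also 3 in undepleted libraries.

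The L copy was higher for eif5a, at log2 ratios of 2.82 ± 0.58 (adjusted p = 0.000104) and 3.23 ± 0.50 (adjusted p = 2.89e-08). In depleted libraries eif5a.L had 41.1, 9.61 and 35.8 FPKM in NW and 34.0, 6.62 and 10.3 FPKM in NWS, against 8.60, 0 and 2.31 and 6.02, 0.81 and 3.96 FPKM for eif5a.S. The L copy was also higher for the eIF3 subunits eif3h, at 2.75 ± 0.61 and 1.98 ± 0.59 (adjusted p = 0.000327 and 0.00589), and eif3e, at 2.49 ± 0.75 and 2.35 ± 0.73 (adjusted p = 0.00966 and 0.00845). Without NW library 3, eif3e no longer passed in either preparation (adjusted p = 0.0548 and 0.0631), nor did eif3h in undepleted libraries (adjusted p = 0.085). All 6 libraries of each preparation had more eif5a.L than eif5a.S. These ratios are per length, and the length of L over S was 0.55 for eif5a, 0.63 for eif3e and 0.996 for eif3h. Depleted libraries held 1012 counts of eif5a.L against 177 of eif5a.S, and 399 of eif3e.L against 141 of eif3e.S.

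The S copy was higher for eef1a1o, at -5.99 ± 0.58 and -4.48 ± 0.48 (SE, edgeR adjusted p = 2.35e-13 and 1.60e-15). Depleted libraries held 98 counts of eef1a1o.L against 2114 of eef1a1o.S, of which 95 and 1645 came from NW library 3. The S copy of eef1a1o was higher in 6 of 6 libraries of each preparation. It was also higher for eif4h, at -3.62 ± 0.61 and -2.78 ± 0.49 (SE, adjusted p = 3.06e-06 and 1.26e-06). The eif4h rows differ in transcript length, with a length of L over S of 2.11, and NW library 2 of the undepleted table was the single library with eif4h.L above eif4h.S. In depleted libraries eif3c passed at -1.04 ± 0.35 (SE, adjusted p = 0.0205), and in undepleted libraries eef1g passed at 1.34 ± 0.42 (SE, adjusted p = 0.0105). By the mean of both preparations, in which opposite signs cancel, the smallest ratios were those of eif4g1 (0.09 ± 0.29 and 0.25 ± 0.31), eif4a1 (-0.23 ± 0.33 and -0.13 ± 0.33) and eif3l (-0.40 ± 0.73 and 0.44 ± 0.57).

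**Figure D5:**
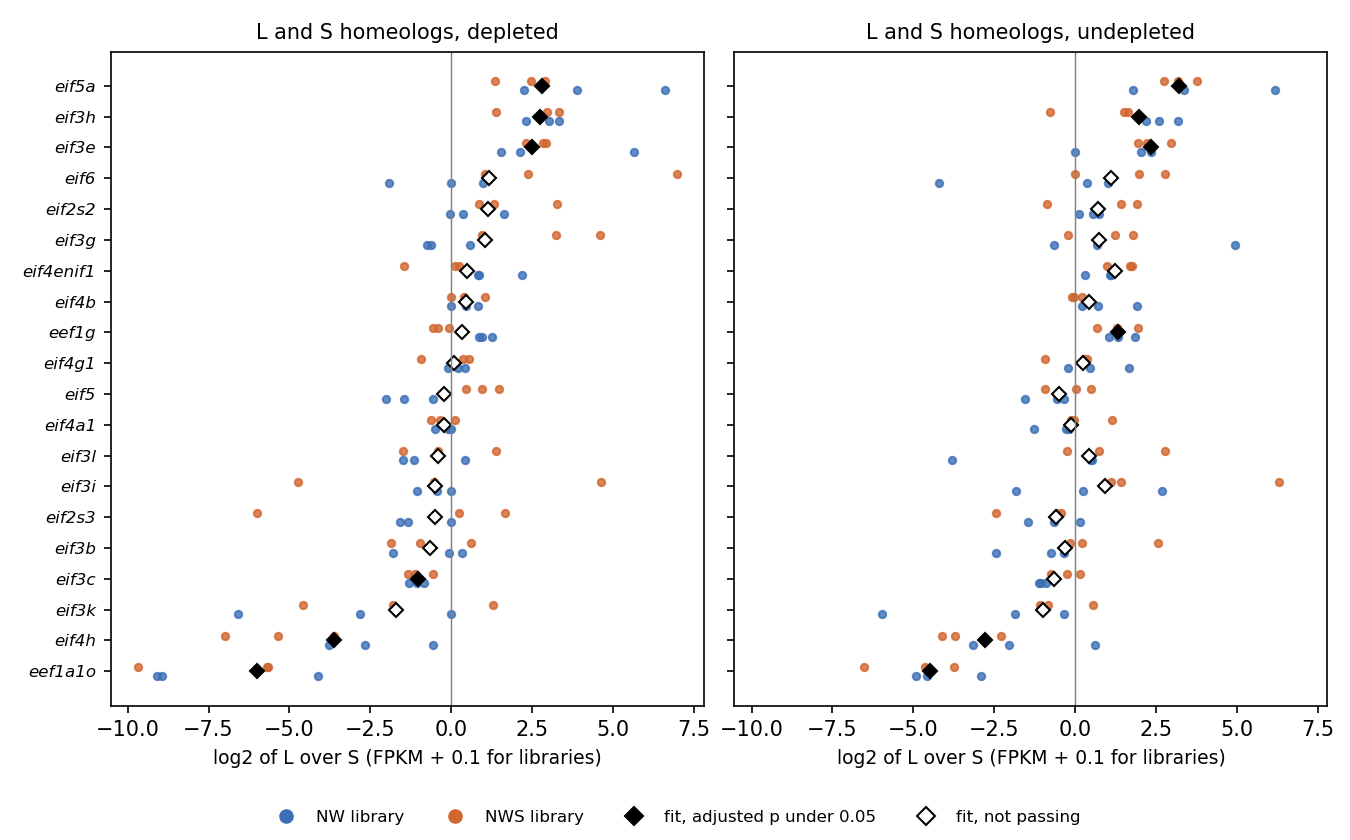
Log2 ratio of the L to the S copy for the 20 factor pairs tested, in depleted (left) and undepleted (right) libraries. Circles are single libraries from FPKM with 0.1 added, and diamonds are the edgeR estimate, filled where the adjusted p is under 0.05. The pairs eif5a, eif3h and eif3e lie to the right and eef1a1o and eif4h to the left in both panels.

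Genes that act beside these factors gave no call in NWS against NW either. Of 110 ribosomal protein rows tested in depleted libraries 82 were lower (median log2 fold change -0.38), and of 109 in undepleted libraries 80 were lower (median -0.23), with 0 called by edgeR. Over all rows tested 51.5% and 52.1% were lower. Summed ribosomal protein levels overlapped between the groups, at 4175 to 9007 CPM in NW and 2992 to 7492 CPM in NWS depleted libraries. In undepleted libraries these sums were 1284 to 2563 CPM and 856 to 2491 CPM. Rows of a library are not independent of one another, and the direction of this list was not tested. Of the tRNA synthetase rows, 13 of 21 had higher values (median 0.66) in depleted and 9 of 16 (median 0.25) in undepleted libraries. Their summed levels overlapped between the groups in both preparations, and 0 were called. Termination and recycling factors such as etf1 had 4 of 7 and 6 of 7 rows lower (medians -0.79 and -0.16), and poly(A)-binding proteins and other mRNA regulators 6 of 11 and 7 of 11 rows lower (medians -0.11 and -0.24). Kinases of eIF2 and genes of the stress response had 3 rows tested, with medians of 0.02 and 0.22, and the mTOR and MNK list had medians of 0.11 and 0.26 over 8 and 10 rows. Within the factor rows themselves, 12 belong to genes whose mRNAs are known from mammals to start with a terminal oligopyrimidine tract. These are a part of the 77 rows and no separate set. Of the 11 tested, 4 were lower in each preparation, with medians of 0.18 and 0.01. No row of the hypusine enzymes or of the mitochondrial translation factors passed the count filter, and 1 row of the selenocysteine factors did.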

How the data were processed

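Lanes of 12 libraries (30 runs) were grouped by title. The submitters' processing notes name bcl2fastq, STAR, featureCounts and DESeq2. Not given in the sources used here: tool versions, the genome build, the annotation, strandedness and how multimapping reads were handled. Raw counts and FPKM values per gene and library were deposited by the authors for each preparation. The deposited FPKM scale equals size factors by medians of ratios, within 0.00194%. Gene names are those of the tables, and synonyms come from the gene table of assembly Xenopus_laevis_v10.1.

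Tests on the counts ran in edgeR 4.0.16 under R 4.3.3, with TMM scaling, the filterByExpr filter (minimum count 10), quasi-likelihood fits for each preparation and Benjamini-Hochberg adjustment over all rows. CPM are relative to TMM effective library sizes. Standard errors of the edgeR fits were computed back, as the size of the log2 fold change over the square root of the quasi-likelihood F statistic. L and S rows were compared with the library as a block and transcript length (recovered from counts and FPKM) as an offset, for pairs with 10 or more counts in at least 3 libraries. The preparations, and the interaction, were fitted on all 12 libraries with the explant code of the titles, shared by a depleted and an undepleted library, as a block. DESeq2 1.42.0 and limma 3.58.1 were alternatives, and the fits were tested on simulated data. Figures used Python 3.11.15 with matplotlib 3.10.9. Floors of 3 counts cover counting error only, and p-values measure the spread between these libraries, which the labels call biological replicates. For the undepleted NWS group the titles give 3 explants but the source names number only 2 biological replicates, and titles were followed, so n = 3 is less certain there.

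Members, gene lists and named rows were chosen with earlier results of these data known. Named rows were the eEF1A rows, the 10 highest mean FPKM, the 5 highest and 5 lowest mean fold changes with equal sign in both preparations, homeolog pairs called in both and the 3 with the smallest ratio. Other rows described by role (eIF5, eIF2 and eIF1 forms) and the paralogue ratios were chosen after their values were seen. Whether library numbers pair NW with NWS was checked by the correlation of deviations from the group means. It was 0.146, 0.249 and 0.153 for equal numbers in depleted libraries and 0.209, 0.268 and 0.130 in undepleted ones, higher than for unequal numbers. Deviations from a mean of 3 libraries depend on one another, so this check cannot establish pairs, and no label names them. NWS against NW was fitted without the library number as a block, as planned, and with it as an alternative. Counts within pairs were added after the values were seen.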

Additional observations from a re-analysis of the deposited data

How the results depend on the processing

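The count of factor rows called in NWS against NW, between preparations and in the interaction was 0 under every alternative run: DESeq2 and its size factors, no filter on low counts, homeologs summed, dominant rows left out, a fit without both libraries numbered 2, and each library left out, where those applied. For NWS against NW the replicate block also gave 0, with a median log2 fold change of -0.12 (depleted) and -0.02 (undepleted). The fits of preparations and interaction have the explant as a block, and without it they also called 0, so pairing changed no call of a factor. That median ran over all alternatives from -0.29 to 0.21 in depleted and from -0.30 to 0.19 in undepleted libraries, positive in both without NW library 3 and with homeologs summed. Without both libraries numbered 2, eef1a1.L turned to -0.0275 (depleted) and -0.37 (undepleted) and eef1a1o.S to -0.17 (depleted), and without a count filter eef1a1.L turned to -0.0705 (undepleted).

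With each library left out in turn, depleted values ran from -0.0417 to 1.21 for eef1a1.L, from -0.0486 to 0.52 for eef1a1o.S, from -1.48 to 0.95 for eif1.L and from -2.84 to 0.38 for eif3i.S. Undepleted values ran from -0.33 to 0.92 for eef1a1.L, from -0.85 to 0.29 for eif3g.S and from -0.0782 to 1.05 for eif6.L. The L to S ratio ran from -0.0142 to 0.49 for eif4g1 and from -0.36 to 0.0643 for eif4a1 (undepleted). Homeolog pairs called were 3 with a minimum of 50 counts (depleted, fewer pairs tested) and 3 to 7 with each library left out (undepleted, 3 without NW library 3). Rows lower in undepleted NWS numbered 49 without NW library 2 and 21 without NW library 3. The causes were not tested. Depth limits all values of library 2 of both groups, in which 3 counts equal 2.75 to 7.58 CPM. It also limits depleted NWS library 1, in which 3 counts equal 5.89 CPM, against 4.30 CPM in depleted NWS library 2. Fits without both libraries numbered 2 kept this library.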
